A study of Homo sapiens with 24 samples.

Results

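The effect of lowering TFEB and TFE3 in cells whose KEAP1 gene was left intact was read from 8 of the 24 libraries of the series. The members are the 4 libraries labelled sitfeb/sitfe3; sgCtrl and the 4 labelled siNC; sgCtrl, and they were compared across 11152 of 11927 genes with a gene ID, those with enough reads to be tested. All 8 came from the established line HepG2, derived from a human liver tumour and transduced with a lentiviral Cas9 vector that carries a control guide against the AAVS1 safe-harbour locus. These cells are a puromycin-selected population and carry Cas9 and a guide in both groups, so the control cells are not unmodified HepG2. One group received a non-targeting siRNA (siNC) and the other received siRNA pools against TFEB and TFE3 together, so the contributions of the pair cannot be told apart. RNA was collected 72 h after transfection with no further treatment given in the labels. In the other 16 libraries the same siRNAs were given to cells with 1 of 2 guides against KEAP1 (sgKeap1-1 and sgKeap1-2), and these are used here only as a comparison. The labels number the libraries of each group, and libraries with the same number share a date-like prefix in their descriptions across all 6 groups. What the prefix marks is not stated, so the libraries were not treated as pairs, and whether those of a group came from separate cultures or days is not known. The p-values therefore measure the spread between these samples, which would include any difference between days.

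TFEB and TFE3 belong to the MiT/TFE family of basic helix-loop-helix leucine zipper transcription factors, together with MITF and TFEC. They bind E-boxes with the core CACGTG, including the longer element shared by many lysosomal genes, and drive genes of lysosomes and autophagy. When nutrients are plentiful, mTORC1 at the lysosome phosphorylates both factors and holds them in the cytoplasm, through Rag GTPases that FLCN and its partners FNIP1 and FNIP2 act on. FLCN, the FNIP genes and RRAGD are themselves known targets, which forms a feedback loop. The comparison asks which transcripts change when TFEB and TFE3 are lowered in this state, with KEAP1 in place to restrain NRF2. Only the siRNA pools named above were used. Loss of both factors therefore cannot be told apart from effects of the siRNAs on other transcripts.

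The 8 libraries held 3575348 to 4402478 reads with siNC and 3731474 to 4397915 with the knockdown. Total reads, the share of reads in rows with no gene ID, the number of genes with a read and the share of reads in the 50 highest genes did not differ beyond the spread of libraries (two-sided exact permutation tests, p = 0.429 to 1 over 70 arrangements, smallest possible p = 0.0286). On the first principal component of the 8 libraries, with 23.1% of the variance, both libraries numbered 1 stood apart at -24.6 and -26.4, against -4.32 to 19.1 for the others. The siNC libraries separated from the knockdown libraries on the third component, with 14.2% of the variance, at 3.66 to 24.3 against -17.7 to 0.103. Levels are given as CPM, read counts scaled to a common total of reads in named genes with TMM factors, in the order of replicates 1 to 4.

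Both siRNA targets were lower in each knockdown library than in any siNC library. In bulk RNA of a transfected population, fewer cells that express a gene and less of its RNA per cell cannot be told apart. TFE3 (chromosome X, 48886237 to 48900936, minus strand of GRCh37) was measured at 29.2, 35.9, 31.9 and 36.1 CPM with siNC. After knockdown it was at 9.47, 10.6, 7.88 and 19.6 CPM, and the groups did not overlap. The mean went from 33.3 ± 3.33 to 11.9 ± 5.25 CPM (SD, n = 4 each), a 2.96-fold lower level (log2 fold change -1.57 ± 0.27 (SE), limma-voom with Benjamini-Hochberg adjustment, adjusted p = 0.0237). TFEB (chromosome 6, 41651716 to 41703997, minus strand) had fewer reads, with 17.3, 6.98, 8.33 and 10.8 CPM under siNC. Its knockdown libraries held 2.11, 2.17, 2.32 and 3.96 CPM, and here too the highest knockdown library was below the lowest siNC library. The siNC libraries of TFEB varied from each other more than those of TFE3, and its log2 fold change of -1.96 ± 0.38 (SE), 3.89-fold lower, had an adjusted p of 0.0858. The TFE3 call was lost when siNC replicate 2, 3 or 4 or knockdown replicate 1, 2 or 3 was left out, with adjusted p from 0.0671 to 0.257 (1.93e-05 to 0.257 over 20 alternative settings), while the log2 fold change stayed between -1.58 and -1.39 in those fits. TFEB passed in edgeR's quasi-likelihood test (adjusted p = 0.00922) and in DESeq2 (adjusted p = 3.75e-05), within a range of 3.75e-05 to 0.591 over 20 alternative settings.

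MITF, the third family member, had too few reads to be tested. Its libraries held 4, 4, 1 and 0 reads with siNC and 7, 3, 1 and 2 with the knockdown. TFEC had no row under its symbol in the counts and was not analysed here. KEAP1, the adaptor of the ubiquitin ligase that degrades NRF2, lay at 85.3, 83.03, 77.5 and 93.6 CPM with siNC and 85.8, 85.95, 84.1 and 84.7 CPM with the knockdown, which overlap throughout. The transcript of NRF2 itself, NFE2L2, gave 256, 191, 248 and 199 CPM with siNC and 218, 232, 237 and 179 CPM with the knockdown. Their log2 fold changes were 0.0054 (95% interval -0.21 to 0.22) and -0.039 (-0.33 to 0.25).

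**Figure D1:**
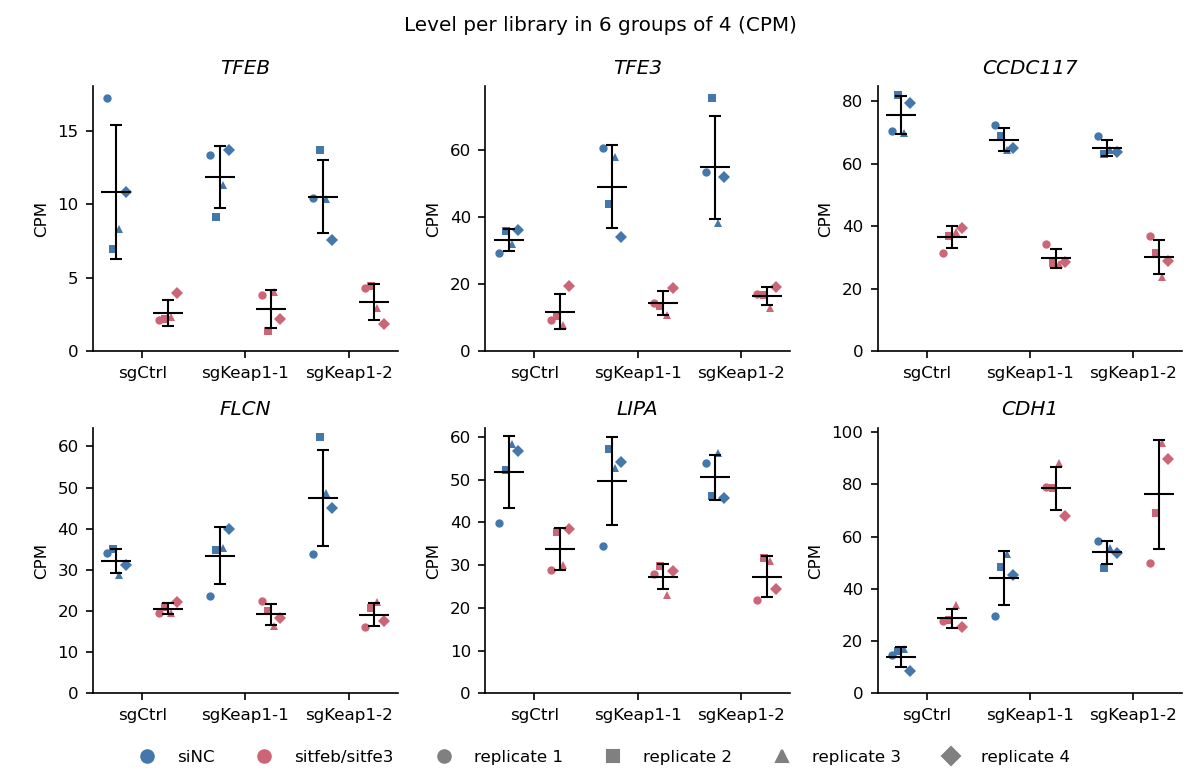
Level of 6 genes in every library of the series, in CPM on axes from 0, with siNC libraries in blue and sitfeb/sitfe3 libraries in red for each guide. Symbols mark replicates 1 to 4 and black bars the mean with SD of 4 libraries; TFEB, TFE3, CCDC117, FLCN and LIPA lie lower after knockdown in the sgCtrl cells and CDH1 lies higher, with no overlap between the sgCtrl groups.

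In the comparison without pairing, the knockdown moved few transcripts past the threshold in these cells. At an adjusted p of 0.05, 2 genes fell, CCDC117 and TFE3 (0.0179% of 11152 genes), and 0 genes rose (0%). Without adjustment, 282 genes were lower (2.53%) and 234 were higher (2.1%) at p under 0.05. That makes 516 in all, fewer than the 557.6 that evenly spread p-values would give. Groups that did not overlap were found for 195 genes lower with the knockdown (1.75%) and 189 higher (1.69%). The median 95% interval of a gene reached 0.389 to each side of its log2 fold change, or 0.293 among the 5876 genes with a mean of at least 100 reads. For a typical gene, a change below about that size would not reach an unadjusted p of 0.05. The adjusted threshold asked for more: HLF at -0.52, CDH1 at 1.08 and TFEB at -1.96 did not pass it. DESeq2 called 6 genes lower (among them CCDC117, TFE3, TFEB, ABHD14B and VGF) and 2 higher (CDH1 and IGLL5), and edgeR's quasi-likelihood test added TFEB alone to CCDC117 and TFE3. A replicate block in the fit gave 4 genes lower and 0 higher over 24 libraries, adding TFEB and RSL24D1, and 14 lower and 4 higher over the 8 libraries, HLF, SQSTM1, CDH1 and APOA2 among them. Without the 6 libraries numbered 1, the fit over all groups called 12 genes lower, among them LIPA, DHCR7, RSL24D1 and APOA2, and 1 higher, CAVIN2. The genes that only DESeq2 or that fit called, IGLL5 among them, are named here after their values were seen.

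CCDC117, which encodes a coiled-coil domain protein (chromosome 22, 29168662 to 29185289, plus strand), was the gene with the smallest p. It was measured at 70.6, 82.03, 70.1 and 79.5 CPM with siNC. Its level after knockdown was 31.6, 36.9, 38.2 and 39.4 CPM, so every knockdown library was far below the siNC mean of 75.5 ± 6.11 CPM (SD, n = 4). The transcript fell by 1.05 on the log2 scale (SE 0.11, adjusted p = 1.1e-05), which is 2.07-fold. CCDC117 passed the threshold in each of the 20 alternative settings, with log2 fold changes from -1.08 to -0.98.

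**Figure D2:**
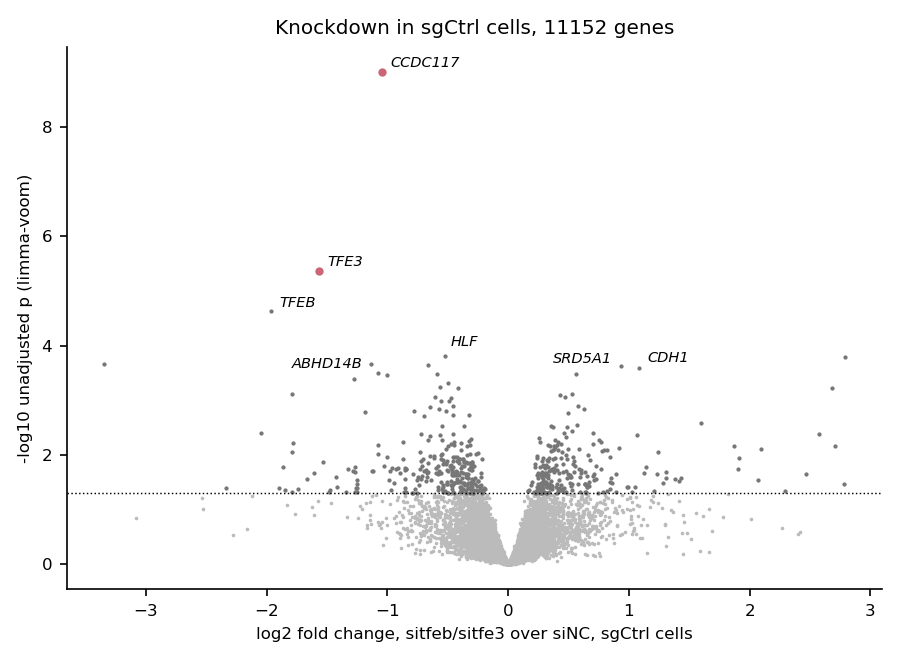
Each point is 1 of 11152 genes, with the log2 fold change of knockdown over siNC in sgCtrl cells on the horizontal axis and -log10 of the unadjusted p on the vertical axis. Red points passed an adjusted p of 0.05 (CCDC117 and TFE3, both lower), dark points an unadjusted p of 0.05 (dotted line), and TFEB lies just below the called genes.

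Promoter sequences are shown for CCDC117, as the gene with the strongest call, and for PDP2, CLCN7 and BRI3, genes lower at an unadjusted p of 0.05 whose promoter holds the E-box core. The latter were picked without a rule among 34 such genes and do not stand for the lower genes. Whether TFEB or TFE3 binds these windows was not tested. Each is the RefSeq window (table build GRCh38.p14) from 250 bases before to 50 bases after a transcript start, 5′ to 3′ on the gene's strand, matched exactly to GRCh37. The windows lie at chr22:29168433-29168732 (plus strand), chr16:66914168-66914467 (plus), chr16:1524980-1525279 (minus) and chr7:97910748-97911047 (plus). Capitals mark CACGTG.
CCDC117: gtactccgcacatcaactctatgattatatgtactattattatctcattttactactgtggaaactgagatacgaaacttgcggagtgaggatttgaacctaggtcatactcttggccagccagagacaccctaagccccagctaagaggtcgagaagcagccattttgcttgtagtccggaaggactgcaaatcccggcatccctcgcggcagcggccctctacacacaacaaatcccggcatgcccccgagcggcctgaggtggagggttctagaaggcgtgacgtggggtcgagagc
PDP2: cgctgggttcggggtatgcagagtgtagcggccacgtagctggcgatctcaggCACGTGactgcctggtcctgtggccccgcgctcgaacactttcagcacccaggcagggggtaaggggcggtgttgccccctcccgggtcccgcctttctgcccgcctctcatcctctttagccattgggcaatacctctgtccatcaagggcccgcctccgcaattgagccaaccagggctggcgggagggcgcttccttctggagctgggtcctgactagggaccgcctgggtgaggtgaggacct
CLCN7: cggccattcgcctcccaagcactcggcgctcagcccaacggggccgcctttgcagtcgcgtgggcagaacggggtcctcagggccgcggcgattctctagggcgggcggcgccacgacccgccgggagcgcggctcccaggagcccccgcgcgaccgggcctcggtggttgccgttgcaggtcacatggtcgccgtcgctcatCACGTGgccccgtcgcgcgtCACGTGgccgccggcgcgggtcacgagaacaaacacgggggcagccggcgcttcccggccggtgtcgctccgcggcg
BRI3: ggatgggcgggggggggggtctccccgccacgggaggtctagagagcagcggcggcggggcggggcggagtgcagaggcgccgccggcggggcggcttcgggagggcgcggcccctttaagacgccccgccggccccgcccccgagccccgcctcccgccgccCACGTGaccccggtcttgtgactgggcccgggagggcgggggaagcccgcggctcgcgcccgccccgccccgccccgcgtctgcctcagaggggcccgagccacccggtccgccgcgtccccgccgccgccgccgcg
CLCN7 holds 2 cores, which begin 47 and 27 bases before the start, PDP2 holds 1 at 197 bases before it and BRI3 holds 1 at 87. Both CCDC117 windows of the table, of which the first is printed, hold no CACGTG, which says only that these letters are absent from them. Over all 9063 tested genes with a window, CACGTG stood in 12.7% (1150 genes). The share was 15.7% among 217 genes lower at an unadjusted p of 0.05 (34 genes) and 9.6% among 198 higher genes (19 genes). CACGTG reads the same on both strands, so 1 search covers both. The longer forms TCACGTGA or GTCACGTG, the latter searched with its reverse complement and both containing CACGTG, stood in 5.79%, 7.83% and 3.54% of these sets. A gene with several windows (2573 genes) was counted once if any of them held the letters.

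Among the 10 lower genes with the smallest p, at a mean of at least 10 reads, were CCDC117, TFE3, TFEB, HLF, ABHD14B, RSL24D1, GDPD3, RIPOR1 and TRIM50. Outside CCDC117 and TFE3 they did not pass the adjusted threshold, and their values follow as measurements. HLF, a bZIP transcription factor that the liver expresses in a daily rhythm, was the most abundant of them, at 507, 479, 503 and 552 CPM with siNC. It was at 323, 341, 349.8 and 409 CPM after knockdown, below every siNC library (log2 fold change -0.52 ± 0.12 (SE), adjusted p = 0.28). RSL24D1, a factor of large ribosomal subunit assembly, was at 113, 144, 140.1 and 188 CPM with siNC and 71.1, 112, 82.5 and 104 CPM with the knockdown, where knockdown replicate 2 came just below the lowest siNC library (log2 fold change -0.66, adjusted p = 0.28). ABHD14B, a hydrolase-fold enzyme, gave 35.1, 23.7, 24.98 and 25.9 CPM with siNC and 12.6, 20.3, 7.41 and 12.1 CPM with the knockdown (log2 fold change -1.14, adjusted p = 0.28). Its locus overlaps ABHD14A and ACY1 on the other strand and PCBP4 on its own, and the strand setting of the counting is not given in the sources used here, so reads of neighbours cannot be told apart. FLCN overlaps MPRIP, SQSTM1 overlaps MGAT4B and MRNIP, WIPI1 overlaps ARSG and BRI3 overlaps BAIAP2L1, each on the other strand, with the same limit.

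GDPD3, a glycerophosphodiesterase that releases lysophosphatidic acid, was at 21.1, 23.4, 29.3 and 26.9 CPM with siNC and 8.68, 13.5, 9.498 and 17.1 CPM with the knockdown (log2 fold change -1.07). RIPOR1 was at 29.2, 31.9, 37.04 and 37.97 CPM with siNC and 23.7, 19.1, 23.4 and 24.3 CPM with the knockdown (log2 fold change -0.59). TRIM50, a ubiquitin ligase, was at 7.62, 8.73, 6.89 and 8.49 CPM with siNC and 4.47, 3.38, 1.85 and 3.96 CPM with the knockdown (log2 fold change -1.27). In these 3 genes every knockdown library was below every siNC library, and the adjusted p of each was between 0.28 and 0.306. Next to them stood PDP2, TOR1A and SAT2, chosen after their values were seen. PDP2, a phosphatase that activates pyruvate dehydrogenase, was at 56.4, 50.1, 61.2 and 50.9 CPM with siNC and 35.8, 43.2, 43.6 and 32.2 CPM with the knockdown (log2 fold change -0.497, adjusted p = 0.33). TOR1A, an ATPase of the endoplasmic reticulum lumen, had a log2 fold change of -0.56 and SAT2, a polyamine acetyltransferase relative that overlaps SHBG, one of -0.49, also with no overlap between groups.

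Among the higher genes none passed the threshold, and the 10 with the smallest p were SRD5A1, CDH1, AOX1, SCGN, TUSC2, OSBPL10, NREP, CAVIN2, S100A10 and CACNA1H. CDH1, which encodes E-cadherin, was at 14.7, 16.2, 16.9 and 8.49 CPM with siNC. After knockdown it was at 27.6, 28.2, 33.8 and 25.3 CPM, 2.12-fold of the siNC level (log2 fold change 1.08 ± 0.26 (SE), adjusted p = 0.28), and the groups did not overlap. SRD5A1, a steroid 5-alpha-reductase, was at 10.2, 5.98, 8.33 and 8.73 CPM with siNC and 15.5, 15.7, 17.1 and 14.4 CPM with the knockdown (log2 fold change 0.93, adjusted p = 0.28). AOX1, a hepatic aldehyde oxidase, was at 26.9, 30.2, 27.6 and 29.95 CPM with siNC and 42.9, 45.1, 46.3 and 35.9 CPM with the knockdown, again without overlap (log2 fold change 0.56, adjusted p = 0.28). CDH1 passed in DESeq2 (adjusted p = 0.00461, within a range of 0.00461 to 1 over its alternatives).

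The calcium-binding protein gene SCGN stood at 48.5, 64.1, 50.8 and 62.03 CPM with siNC and 86.3, 82.8, 73.7 and 82.01 CPM with the knockdown, and OSBPL10, of the oxysterol-binding protein family, at 36.1, 47.4, 36.2 and 36.1 CPM with siNC and 51.1, 55.3, 54.9 and 53.02 CPM with the knockdown. CAVIN2, of the coat of caveolae, was at 36.8, 33.7, 31.01 and 29.2 CPM with siNC and 44.2, 49.7, 55.1 and 52.3 CPM with the knockdown, and S100A10, the partner of annexin A2, at 99.3, 124, 89.9 and 95.04 CPM with siNC and 159, 127, 147 and 143 CPM with the knockdown. Log2 fold changes were 0.53, 0.47, 0.62 and 0.498, with adjusted p from 0.398 to 0.523. None of these 4 had overlapping groups. TUSC2, whose locus overlaps HYAL2, and CACNA1H, a T-type calcium channel gene, also had separate groups, while NREP overlapped, with siNC replicate 1 above knockdown replicate 1 (log2 fold changes 0.43, 1.597 and 0.58).

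The largest fold changes belonged to genes with few reads. On the lower side, at an unadjusted p under 0.05 and a mean of at least 10 reads, these were TFEB, SPATC1L, VGF, MYO15B and SH2D5, with log2 fold changes from -1.96 to -1.78. VGF, a secreted neuroendocrine protein, was at 5.84, 10.2, 11.2 and 6.13 CPM with siNC and 3.68, 2.41, 0.927 and 2.97 CPM with the knockdown with no overlap, and SPATC1L was at 3.81, 4.24, 1.72 and 1.65 CPM with siNC and 0, 3.86, 0 and 4.71 CPM with the knockdown with overlap. On the higher side GNL1 had 0, 0, 17 and 12 reads with siNC and 24, 21, 15 and 16 with the knockdown, so the groups overlapped, and its log2 fold change of 2.79 ranged from 1.29 with DESeq2 to 3.67 without siNC replicate 3. CPEB2 and the cyclin gene CCND2 had log2 fold changes of 1.31 and 1.24. CCND2 was at 10.4, 10.2, 5.17 and 4.48 CPM with siNC and 18.9, 12.1, 16.7 and 21.3 CPM with the knockdown. The feature NOMO2/LOC102723728 (log2 fold change 2.46) covers near-identical copies, so its reads cannot be assigned with certainty.

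**Figure D3:**
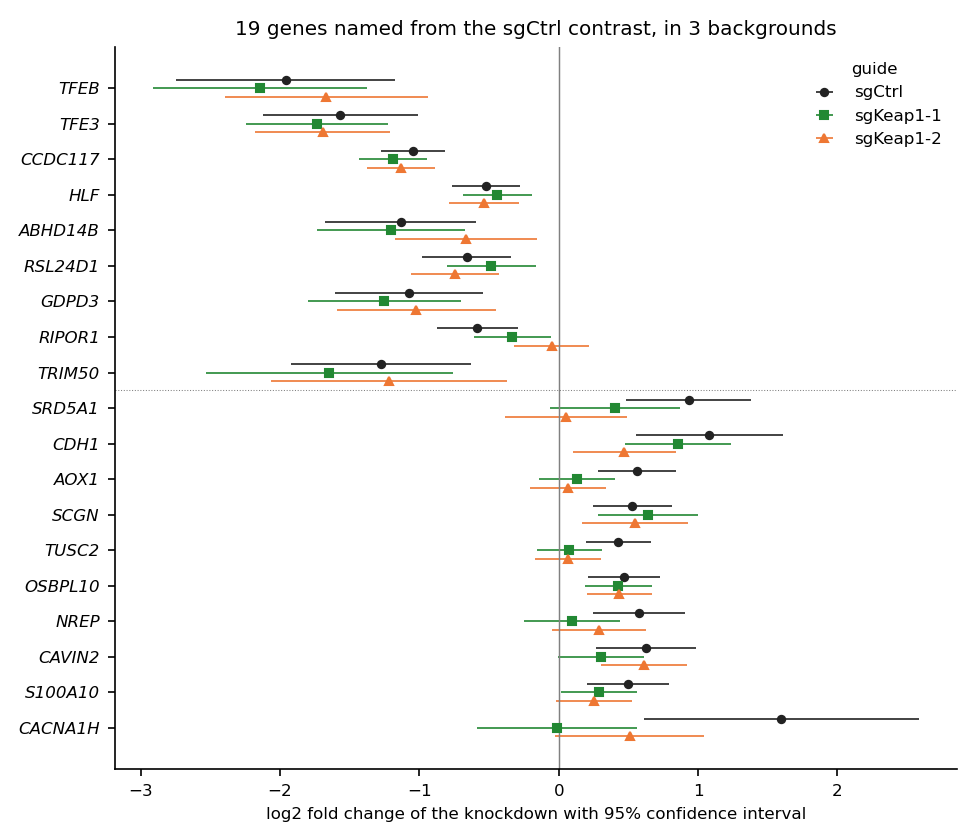
Log2 fold change of the knockdown with its 95% confidence interval for 9 lower and 10 higher genes named from the sgCtrl contrast (black circles), and for the same genes in sgKeap1-1 (green squares) and sgKeap1-2 cells (orange triangles). The 9 lower genes are on the same side of 0 in the 3 backgrounds, and 9 of the 10 higher genes are, with CACNA1H at -0.013 in sgKeap1-1 cells as the exception.

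Among known targets of TFEB and TFE3, lower genes outnumbered higher ones, and none passed the adjusted threshold. Of the 17 feedback and reporter genes listed, 16 were tested, 4 were lower at an unadjusted p of 0.05 (25%, against 2.53% of all genes) and 0 were higher. Their median log2 fold change was -0.24, against -0.0015 over all genes, and 13 of 16 were negative (81.25%, against 50.3% of all genes). For every list below, the values over all genes are the same: 50.3% negative, and 2.53% lower and 2.1% higher at an unadjusted p of 0.05. The lists were chosen with earlier results of these data known, so their shares are descriptions and not independent support. FLCN, the Rag GTPase regulator of the feedback loop, was at 34.03, 35.2, 28.7 and 31.1 CPM with siNC and 19.5, 21.01, 19.5 and 22.3 CPM after knockdown, without overlap (log2 fold change -0.65 ± 0.18 (SE), adjusted p = 0.497). Its partners FNIP1 and FNIP2 were at 35.8, 41.9, 43.4 and 38.7 CPM with siNC and 35.3, 29.7, 35.4 and 30.97 CPM with the knockdown, and at 75.4, 87.8, 89.9 and 94.6 CPM with siNC and 61.3, 85.7, 76.7 and 75.6 CPM with the knockdown. FNIP1 had separate groups, while for FNIP2 knockdown replicates 2, 3 and 4 lay above siNC replicate 1 (log2 fold changes -0.28 and -0.22). Within each of the 4 replicate numbers the FNIP2 knockdown library was the lower one. Such same-number comparisons, here and below, are descriptions only and are not given for every gene. The labels do not establish pairs, and the share of all genes with this pattern was not computed.

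SQSTM1, which encodes the autophagy receptor p62 and is also an NRF2 target, was at 217, 301, 277 and 353 CPM with siNC and 154, 190.02, 177 and 269 CPM with the knockdown, where knockdown replicate 4 exceeded siNC replicate 1 (log2 fold change -0.55 ± 0.17 (SE), adjusted p = 0.757). Within each of the 4 replicate numbers the knockdown library was the lower one, and SQSTM1 passed with the replicate block over the 8 libraries (limma-voom, adjusted p = 0.0114) but not with the block over 24. WIPI1, which binds phosphatidylinositol 3-phosphate on forming autophagosomes, was at 39.9, 53.9, 54.8 and 68.6 CPM with siNC and 28.4, 45.1, 41 and 46.6 CPM with the knockdown (log2 fold change -0.43). Its groups overlapped, and it too was lower within each of the 4 replicate numbers. The Rag GTPase genes differed from each other in abundance. RRAGC was at 10.2, 10.2, 7.18 and 8.73 CPM with siNC and 7.11, 7.97, 9.498 and 8.67 CPM with the knockdown (log2 fold change -0.12), and RRAGD was near the floor of 3 reads (0.664 to 0.928 CPM) in most libraries, with 1.78, 0.997, 0.574 and 2.83 CPM with siNC and 0, 0.241, 3.01 and 0.248 CPM with the knockdown, so its log2 fold change of -1.58 rests on few reads. GPNMB, used elsewhere as a readout of MiT/TFE activity, also had few reads but lay on the higher side, with overlapping groups. It was at 1.27, 1.25, 1.15 and 0.236 CPM with siNC and 0.789, 1.93, 2.32 and 3.22 CPM with the knockdown (log2 fold change 1.08). PPARGC1A, the coactivator of mitochondrial genes, was at 11.9, 15.2, 13.5 and 16.5 CPM with siNC and 13.9, 12.8, 6.49 and 9.41 CPM with the knockdown (log2 fold change -0.49, 95% interval -1.01 to 0.037). MAP1LC3B, which encodes the autophagosome protein LC3B, had a log2 fold change of 0.039 (-0.32 to 0.398), and HEXA one of 0.14 (-0.15 to 0.44). MCOLN1, the lysosomal calcium channel gene, had at most 4 reads in each sgCtrl library and was not tested.

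The median lysosomal gene lay close to its siNC level. Of 150 genes tested over 4 lists, 7 were lower and 2 higher at an unadjusted p of 0.05, which is 4.67% lower against 2.53% of all genes, and 0 passed the adjusted threshold. Their median log2 fold change was -0.053 with a median 95% interval of 0.335 to each side. Among 47 hydrolases and activators 2 were lower (4.26%) and 0 higher, 33 were negative (70.2%, against 50.3% of all genes), and the median was -0.099. ASAH1, acid ceramidase, was at 90.9, 90.8, 88.1 and 76.4 CPM with siNC and 58.7, 68.8, 64.2 and 67.6 CPM with the knockdown, and LIPA, lysosomal acid lipase, at 39.9, 52.4, 58.3 and 56.8 CPM with siNC and 28.9, 37.7, 30.1 and 38.4 CPM with the knockdown. Both had separate groups, and ASAH1 differed by -0.41 on the log2 scale (adjusted p = 0.356) and LIPA by -0.61 (adjusted p = 0.398). LIPA overlaps IFIT1 and IFIT3 on the other strand. PCYOX1 and GLB1 had the smallest p on the positive side, at log2 fold changes of 0.13 and 0.11 with overlapping groups.

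Among 45 membrane proteins and transporters 2 were lower (4.44%, against 2.53% of all genes), 1 was higher and the median was 0.034. CLCN7, a chloride-proton exchanger whose promoter window is printed above, was at 22.4, 20.9, 13.5 and 25.5 CPM with siNC and 10, 13.3, 13.7 and 19.3 CPM with the knockdown, with overlap through siNC replicate 3 (log2 fold change -0.56 ± 0.21 (SE), unadjusted p = 0.012). Within replicate number 3 the CLCN7 knockdown library was the higher one. SLC66A1, an exporter of cationic amino acids, was at 16.8, 17.5, 14.4 and 16.04 CPM with siNC and 9.21, 14, 8.34 and 16.4 CPM with the knockdown (log2 fold change -0.48). Within replicate number 4 the SLC66A1 knockdown library was the higher one. LITAF, of late endosomal membranes, was higher, at 480.04, 449, 439 and 415 CPM with siNC and 556, 529.97, 547 and 498 CPM with the knockdown (log2 fold change 0.26). In the proton pump 14 of 18 genes were negative (77.8%, against 50.3% of all genes), 1 was lower at an unadjusted p of 0.05 (5.56%) and the median was -0.069. The lower gene was ATP6V1C1, a subunit of the soluble domain, at 38.4, 36.2, 31.3 and 34.2 CPM with siNC and 32.6, 25.8, 25.9 and 24.8 CPM with the knockdown (log2 fold change -0.37). Of 40 trafficking genes 2 were lower and 1 higher, with a median of -0.012: the AP-3 subunit AP3D1 and the HOPS subunit VPS33A at -0.22 and -0.29, and the AP-1 subunit AP1M2 at 0.42.

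Autophagy genes gave 4 of 48 lower (8.33%, against 2.53% of all genes) and 0 higher at an unadjusted p of 0.05. Of the 48, 27 were positive, so 43.75% were negative against 50.3% of all genes, and the median was 0.011. The lower genes were SQSTM1, WIPI1, EPG5 and ATG10. SQSTM1 and WIPI1 are also on the feedback list, as are UVRAG and MAP1LC3B, so the shares of these lists are not independent. Nutrient-sensing genes upstream of both factors, which share FLCN, FNIP1, FNIP2, RRAGC and RRAGD with the feedback list, gave 3 of 41 lower (7.32%) and 0 higher with a median of -0.060. Beside FLCN and FNIP2 the lower gene was EIF4EBP1, the translation repressor that mTORC1 phosphorylates, at 22.4, 28.4, 30.4 and 41.04 CPM with siNC and 20.3, 20.04, 18.5 and 28.5 CPM with the knockdown (log2 fold change -0.48). The strongest positive values by p in that list were WDR59 and SESN1, at 0.18 and 0.195.

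**Figure D4:**
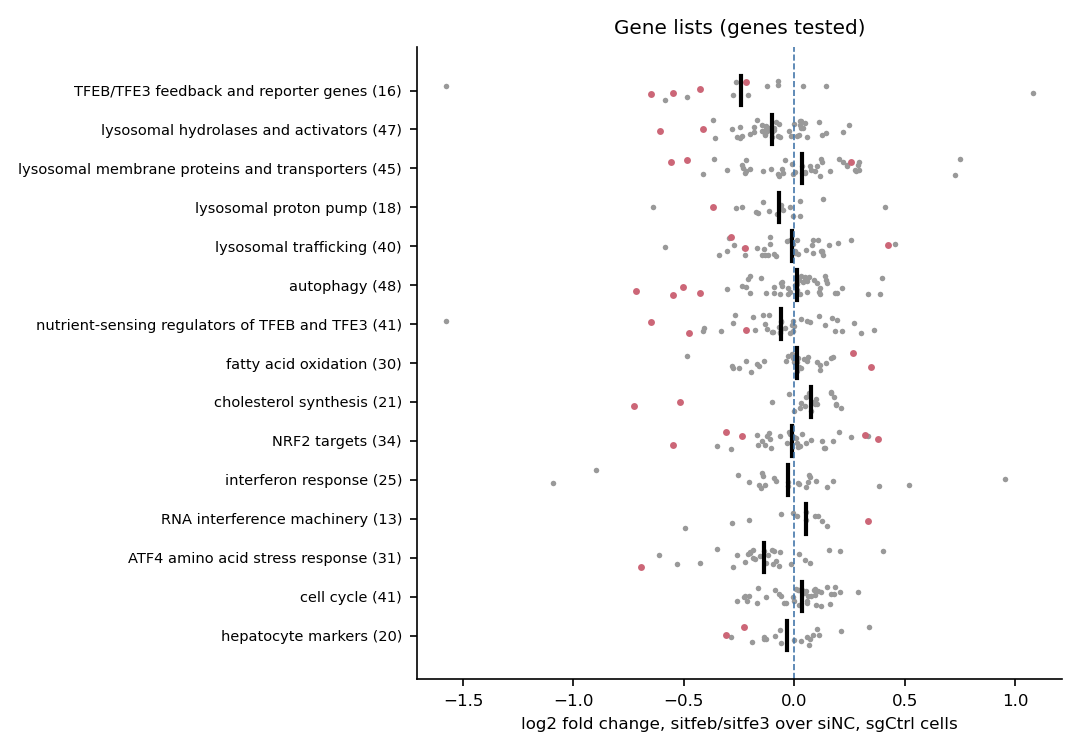
Log2 fold change of knockdown over siNC in sgCtrl cells for the tested genes of 15 lists, 1 point a gene, with red for an unadjusted p under 0.05, a black bar at each list's median and a dashed line at the median of all genes (-0.0015). Medians run from -0.24 for the feedback genes to 0.076 for cholesterol synthesis.

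Lists outside the lysosome were described in the same way, beside 2.53% of all genes lower and 2.1% higher at an unadjusted p of 0.05, and 50.3% negative. Fatty acid oxidation had 0 of 30 genes lower and 2 higher, PPARA at 40.6, 44.4, 36.5 and 48.8 CPM with siNC and 51.3, 54.8, 51.7 and 58.96 CPM with the knockdown (log2 fold change 0.35) and CPT1A at 0.27, with a median of 0.011. PPARA encodes the nuclear receptor that drives this pathway and CPT1A its entry enzyme. Cholesterol synthesis had 2 of 21 lower, although 16 of 21 were positive and the median was 0.076. DHCR7, the last enzyme of the pathway, was at 77.2, 113, 119 and 121 CPM with siNC and 54.7, 76.5, 80.4 and 87.95 CPM with the knockdown, with overlap through siNC replicate 1 although lower within each of the 4 replicate numbers (log2 fold change -0.52 ± 0.15 (SE), adjusted p = 0.514), and PMVK at 15.7, 19.4, 13.2 and 16.7 CPM with siNC and 11.1, 8.69, 11.6 and 8.18 CPM with the knockdown (log2 fold change -0.73). FDFT1 and EBP were at 0.19 and 0.17.

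NRF2 targets had 3 of 34 genes lower and 2 higher, beside 2.53% lower and 2.1% higher of all genes, with a median of -0.010. The lower genes included SQSTM1, which the feedback and autophagy lists also hold, and AKR1C1, an aldo-keto reductase, at -0.31. On the higher side were the pentose phosphate enzyme PGD at 0.38 and the exporter ABCC3 at 0.32. In the ATF4 stress list 25 of 31 genes were negative (80.6%, against 50.3% of all genes) and the median was -0.14, yet 1 gene was lower at an unadjusted p of 0.05 (3.23%). This gene was NUPR1, a stress-induced chromatin protein, at 26.7, 35.4, 35.6 and 46.2 CPM with siNC and 17.9, 17.6, 25.9 and 27.5 CPM with the knockdown (log2 fold change -0.69 ± 0.201 (SE), adjusted p = 0.559), and DDIT3, which encodes CHOP, was at -0.61 (unadjusted p = 0.0526). ATF3 and ATF5 were at 0.402 and 0.16.

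Genes that siRNA delivery itself can move were described as well. Both groups received siRNA, so an effect of delivery that they share cannot show in this comparison. Of 25 interferon response genes 0 were lower and 0 higher at an unadjusted p of 0.05, with a median of -0.028, and the lowest p belonged to XAF1 at 2.54, 4.49, 3.45 and 6.37 CPM with siNC and 3.16, 2.897, 1.62 and 0.743 CPM with the knockdown. IFIT5 and IFI6 had log2 fold changes of 0.39 and 0.15. Of 13 genes of the RNA interference machinery 1 was higher, TNRC6B, a partner of Argonaute proteins, at 79.2, 69.6, 72.1 and 70.04 CPM with siNC and 100, 90.8, 83.2 and 93.2 CPM with the knockdown (log2 fold change 0.33), while AGO4, DGCR8 and DROSHA were at -0.49, -0.28 and 0.15. Cell cycle genes had 0 of 41 lower and 0 higher, with a median of 0.036 and single genes between -0.26 (BIRC5) and 0.29 (CDKN3).

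The same knockdown in cells with a KEAP1 guide used other libraries for both groups. The siRNAs were the same, so agreement between backgrounds cannot tell loss of both targets from siRNA effects on other transcripts. It called 8 genes lower (0.0717%) and 2 higher (0.0179%) with sgKeap1-1, and 29 lower (0.26%) and 11 higher (0.0986%) with sgKeap1-2. At an unadjusted p of 0.05 these contrasts held 446 lower (4%) and 455 higher genes (4.08%), and 557 lower (4.99%) and 612 higher genes (5.49%). Across genes, which are not independent, the log2 fold changes in sgCtrl cells correlated with a Pearson's r of 0.259 with those in sgKeap1-1 cells and 0.228 with those in sgKeap1-2 cells, beside 0.218 between the KEAP1 guides.

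Most lower genes of the sgCtrl contrast had the same sign in the other backgrounds. They were chosen by their p in sgCtrl cells, which by itself makes their values there larger, so sizes cannot be compared between backgrounds from this set. Their median log2 fold change was -0.49 in sgCtrl cells, -0.196 with sgKeap1-1 and -0.23 with sgKeap1-2. Of the 282 lower at an unadjusted p of 0.05, 81.2% were also negative with sgKeap1-1, 77% with sgKeap1-2 and 67% with both, against 57.2%, 54.1% and 33.1% of all genes that were negative in sgCtrl cells. In both KEAP1 backgrounds 60 of the 282 (21.3%) were lower at an unadjusted p of 0.05, against 2.48% of all negative genes. Of the 234 higher genes, 68.8%, 73.1% and 54.3% kept their sign, against 60.4%, 56.3% and 36.4% of all positive genes. Of these, 34 (14.5%, against 1.62%) were higher at that p in both.

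CCDC117 fell by 1.19 (adjusted p = 2.14e-06) and by 1.13 on the log2 scale (adjusted p = 5.85e-06) with the 2 guides. Its knockdown libraries held 34.2, 28.5, 27.8 and 28.6 CPM with sgKeap1-1 and 36.8, 31.5, 23.9 and 28.95 CPM with sgKeap1-2, close to those of the sgCtrl cells. TFE3 fell by 1.74 and 1.69, and TFEB by 2.15 and 1.67, all with adjusted p between 0.000349 and 0.0419. Several genes short of the threshold in sgCtrl cells passed it with both guides, though a direct test of the difference between backgrounds called none of them. LIPA fell by 0.83 and 0.89 (adjusted p = 0.0461 and 0.0151). BRI3, a small membrane protein chosen here after its values were seen, fell by 0.75 and 0.80 (adjusted p = 0.00293 and 0.000472), beside -0.34 in sgCtrl cells, where it was at 109, 119.9, 128 and 138 CPM with siNC and 82.6, 113, 94.1 and 102 CPM with the knockdown, overlapping between groups and lower within each of the 4 replicate numbers. UAP1L1 and NOS3, chosen in the same way, had log2 fold changes of -0.65 and -0.86 in sgCtrl cells, -1.05 and -1.16 with sgKeap1-1, and -0.93 and -1.34 with sgKeap1-2.

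Other genes passed the threshold with 1 KEAP1 guide. FLCN fell by 1.27 with sgKeap1-2 (adjusted p = 0.000349) and was at -0.78 with sgKeap1-1 (adjusted p = 0.101), beside -0.65 in sgCtrl cells. ASAH1, HLF, RSL24D1, NUPR1, SAT2 and PDP2 likewise passed with sgKeap1-2, at log2 fold changes of -0.59, -0.54, -0.74, -0.91, -0.96 and -0.58. Among the higher genes, CDH1 was at 0.86 with sgKeap1-1 and 0.47 with sgKeap1-2 (adjusted p = 0.0644 and 0.311). Its siNC level was 44.1 ± 10.3 CPM with sgKeap1-1 and 53.9 ± 4.39 CPM with sgKeap1-2, beside 14.1 ± 3.85 CPM in sgCtrl cells (SD, n = 4 each). SRD5A1, AOX1 and TUSC2 had 95% intervals that included 0 in both, at 0.41, 0.13 and 0.076 with sgKeap1-1 and 0.053, 0.064 and 0.069 with sgKeap1-2.

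**Figure D5:**
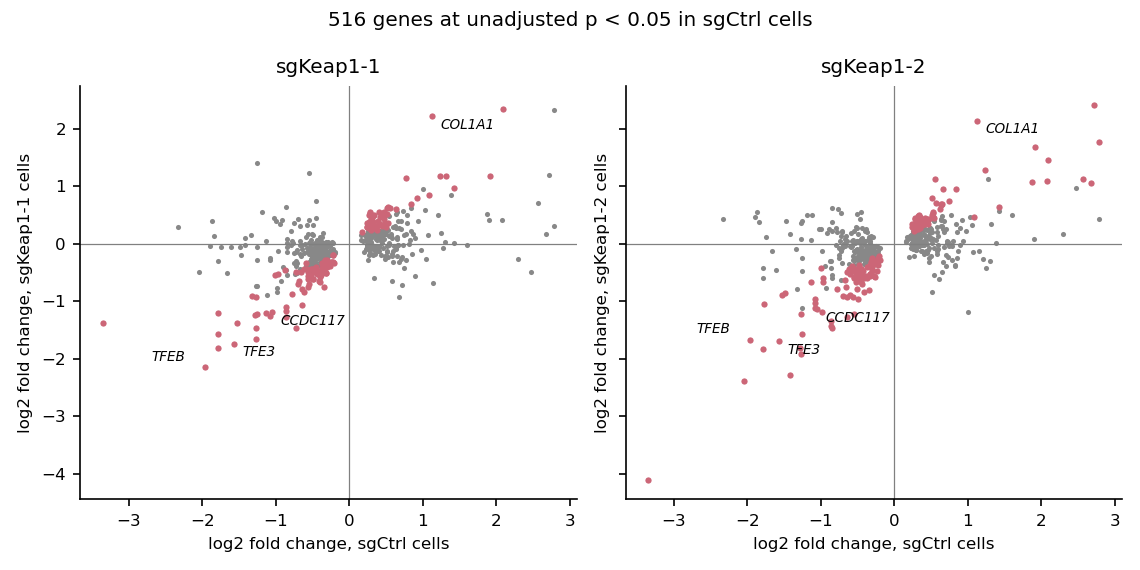
Log2 fold change of the knockdown in sgCtrl cells against that in sgKeap1-1 (left) and sgKeap1-2 cells (right) for the 516 genes at an unadjusted p under 0.05 in sgCtrl cells, with red for genes at that p in the same direction on both axes. CCDC117, TFE3 and TFEB lie low on both axes and COL1A1 high, and because the genes were chosen on the horizontal axis, their larger spread along it is set by that choice.

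Whether the knockdown acted differently with KEAP1 intact was tested directly, as the mean knockdown effect with the 2 KEAP1 guides minus the effect in sgCtrl cells. The test called 0 of 11152 genes (0%), and 349 were at an unadjusted p under 0.05 (3.13%). DESeq2 and edgeR's quasi-likelihood test also called 0, with 365 and 366 genes at that p. Among the genes with the smallest p were CEP112, CYP27A1, NES and PHTF1, with differences on the log2 scale of 1.71, -0.38, 0.74 and 0.96 and an adjusted p of at least 0.999. CYP27A1, sterol 27-hydroxylase, was at 215, 249, 229.97 and 217 CPM with siNC and 241, 264, 282 and 256 CPM with the knockdown in sgCtrl cells (log2 fold change 0.197, beside -0.15 and -0.22 with the KEAP1 guides). The difference for CCDC117 was -0.11 (95% interval -0.403 to 0.17), for FLCN -0.38 (-0.83 to 0.075) and for LIPA -0.25 (-0.66 to 0.16).

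The labelled cell type was checked against its markers. All 20 hepatocyte markers had reads in each of the 8 libraries, at a summed level of 40171 to 55292 CPM with siNC and 36872 to 51202 CPM with the knockdown. ALB, albumin, and APOA2 were lower at an unadjusted p of 0.05, at log2 fold changes of -0.23 and -0.31, and the list median was -0.031. FOXA1 and FGB had the smallest p on the positive side, at 0.34 and 0.105. Of 6 immune markers 2 had a row under their symbol in the counts, and the others, PTPRC among them, could not be looked at. LYZ, lysozyme, was abundant at 1533, 2282, 2552 and 2813 CPM with siNC and 1299, 2093, 1806 and 1756 CPM with the knockdown, and CD14 was near the floor at 6.096, 1.75, 4.02 and 1.42 CPM with siNC and 1.84, 2.17, 2.32 and 4.21 CPM with the knockdown (log2 fold changes -0.38 and -0.13). Of 5 endothelial markers 0 had such a row, and of 7 stellate cell and fibroblast markers 3 did. The summed levels of the latter were 53.8 to 62.3 CPM with siNC and 58.7 to 71.1 CPM with the knockdown. COL1A1, a fibrillar collagen chain, was higher with 4.83, 2.49, 4.59 and 2.59 CPM with siNC and 13.4, 5.79, 6.02 and 7.43 CPM with the knockdown (log2 fold change 1.12 ± 0.46 (SE), adjusted p = 0.942), while PDGFRB was lower with 8.38, 8.23, 9.47 and 11.6 CPM with siNC and 5.26, 6.76, 4.86 and 5.698 CPM with the knockdown (log2 fold change -0.73) and ACTA2 was at 0.26. COL1A1 rose by 2.22 and 2.14 with the KEAP1 guides (adjusted p = 0.0367 and 0.025). The part of these markers in the other results was not tested.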

How the data were processed

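The study's methods describe QuantSeq 3′ libraries read single-end on a NextSeq instrument, trimmed with Cutadapt, aligned with STAR and counted with featureCounts. The submitters' processing notes name FastQC 0.72, cutadapt 1.16, STAR 2.7.5b, featureCounts 1.6.3 and limma 3.40.6. The methods give hg19 and the notes hg38 as genome build, so coordinates here are those of GENCODE on GRCh37 and name genes only. The authors deposited raw read counts per Entrez gene ID, 1 column per library, with no normalization, and 0 columns were left unmatched to a sample. Of 13446 rows, 1414 had no gene ID (1.35% to 2.05% of the reads of the 8 libraries) and were kept out of library sizes and tests. Rows that shared an ID were summed and IDs with identical counts were merged, which left 11927 features. Symbols came from a RefSeq gene table.

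Counts were filtered with filterByExpr by group (11152 genes kept), scaled with TMM factors and passed to voom and limma's linear model (R 4.3.3 with edgeR 4.0.16 and limma 3.58.1; limma-voom) in 1 fit of 6 group means over 24 libraries, two-sided, with Benjamini-Hochberg adjustment over all genes. CPM uses TMM-scaled library sizes. The alternatives were other scalings and filters, edgeR's quasi-likelihood test, DESeq2 1.42.0, sample quality weights, a fit of 8 libraries, the replicate number as a block and leaving out each library. Scripts were tested on simulated data. Libraries of a group differed by more than counting error (chi-square per degree of freedom 3.79 to 13.2), so none was a duplicate. Reads carry no molecular identifiers, so the floor of 3 reads covers counting error only.

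Genes were named by rule: TFEB, TFE3, MITF, TFEC, KEAP1, NFE2L2 and a set of known targets always; every called gene; the 10 genes each way with the smallest p at a mean of at least 10 reads; 2 genes each way per list; the 5 largest changes each way at an unadjusted p under 0.05; and the 5 genes with the smallest interaction p. The members and lists were chosen with earlier results of these data known. Values of some genes that the rule names are not reported here.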

Additional observations from a re-analysis of the deposited data

Results flagged for a closer look

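Each group of 4 sgCtrl libraries was checked for 1 library far from the other 3, over the named genes and 4 library measures. Of 226 groups checked, 17 were marked (7.52%), where about 5% would be by chance. In the siNC group, replicate 1 stood apart in 5 genes: low for ATF3 (6.86 CPM) and APOA2 (4976 CPM), and high for ATF5 (40.4 CPM), CDKN3 (56.4 CPM) and the mitotic survivin gene BIRC5 (225 CPM). In the knockdown group, replicate 1 was high for BIRC5 (157 CPM) and ATP6V1C1 (32.6 CPM) and low for FGB (915 CPM). Both libraries numbered 1 were thus the highest of their group for BIRC5, which is the pair that the first principal component sets apart.

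Knockdown replicate 4 kept the most TFEB of its group, at 3.96 CPM, and was high for EBP (217 CPM). Replicate 3 of that group was high for RRAGD (3.01 CPM) and low for IFIT5 (5.79 CPM), and replicate 2 was high for ATP6V0D1 (40.3 CPM) and low for RIPOR1 (19.1 CPM). Of the siNC libraries, replicate 4 was low for GPNMB (0.236 CPM) and high for AGO4 (16.7 CPM), and replicate 2 was high for OSBPL10 (47.4 CPM).

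The rows with no gene ID were fitted together with the named genes. Of 925 that passed the filter, limma-voom called 0 for the knockdown in sgCtrl cells, and 33 (3.57%) were at an unadjusted p under 0.05.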

How the results depend on the processing

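CCDC117 was lower and passed the threshold in all 20 alternatives, and the interaction called 0 genes in each of its alternatives. The count of 2 lower and 0 higher genes in sgCtrl cells became 6 and 2 with DESeq2, 6 and 1 with sample quality weights, and 12 and 1 when the 6 libraries numbered 1 were left out of the fit of all groups, an alternative added after the data were seen. Leaving out 1 library at a time gave 1 to 2 lower genes. With the replicate block it was 4 lower genes over 24 libraries, and 14 lower and 4 higher over the 8. Same-numbered libraries share a date-like prefix in the labels whose meaning is not stated, and replicate numbers were not taken to pair them: deviations of same-numbered libraries correlated at 0.26, -0.027, 0.0055 and 0.074, and not every library correlated best with its own number.

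Over the named genes and alternatives, 2110 log2 fold changes kept their direction and side of the threshold, 26 newly passed it, 7 lost it (all TFE3) and 18 changed sign. The sign changes were in KEAP1, NFE2L2, RRAGC, MAP1LC3B, FGB and CD14. In the main fit RRAGC was at -0.12 and CD14, with 6 to 24 reads per sgCtrl library, at -0.13. NFE2L2 was at 0.0083 with quality weights, and when single libraries were left out log2 fold changes ran from -0.029 to 0.063 for KEAP1, -0.10 to 0.048 for NFE2L2, -0.11 to 0.22 for MAP1LC3B, -0.000495 to 0.22 for FGB and -0.45 to 0.24 for CD14. Without the libraries numbered 1 NFE2L2 was at 0.027 and 0.029, RRAGC at 0.00019 and 0.00123, MAP1LC3B at -0.023 and -0.022 (8 libraries and all groups) and CD14 at 0.38 (all groups). Leaving out 1 library moved list medians within -0.13 to -0.043 (hydrolases), -0.13 to -0.031 (proton pump), -0.075 to -0.012 (nutrient sensing), -0.035 to 0.029 (fatty acid oxidation), -0.059 to 0.017 (interferon) and 0.0041 to 0.070 (RNA interference), and quality weights put the interferon median at 0.023. MITF and MCOLN1 had too few reads to pass the filter. The causes were not tested.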
